A study of Mus musculus with 11 samples.

Results

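The ephrin, netrin and slit guidance systems were followed in 36 genes: 8 EphA receptors, 5 EphB receptors, 5 ephrin-A and 3 ephrin-B ligands, 3 Slits, 3 Robo receptors, 2 netrins, 6 netrin receptors and the netrin receptor antagonist Draxin. They were taken by symbol from the 24421 genes counted in every library, and all 36 were found. The cells were J-RGCs, retinal ganglion cells selective for the direction of motion, labelled with green fluorescent protein by a transgenic line, sorted by flow cytometry and pooled 100 cells at a time for Smart-seq2 RNA sequencing. Tbr1 KO mice, which lack the T-box transcription factor encoded by Tbr1, gave 6 pools from 4 animals, here called a (libraries 1 and 2), b (3 and 4), c (5) and d (6). WT mice gave 5 pools from 4 animals, called a (library 1), b (2 and 3), c (4) and d (5). Both genotypes were on a mixed C57BL/6 and CD1 background, were taken at postnatal day 4 to 5 and carried the same reporter. The labels give neither the promoter that drives the reporter nor the part of Tbr1 that was removed, nor whether it was removed in other cells too. The comparison asks which guidance transcripts of this cell type differ in the absence of Tbr1.

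Eph receptors are receptor tyrosine kinases that bind ephrins on neighbouring cells. Ephrin-A ligands are anchored in the membrane by a lipid, ephrin-B ligands span it, and both kinds can signal back into the cell that carries them. In the retina, graded Eph receptors and ephrins guide ganglion cell axons to ordered positions in the brain. Netrin-1 draws ganglion cell axons out of the eye at the optic disc through the receptor Dcc, while Unc5 receptors turn the response to netrin towards repulsion. Slits are secreted repellents that act through Robo receptors and keep ganglion cell axons in their layer and on their path.

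Counts of the pools of each animal were summed, so that the animal was the replicate, and levels are TMM-scaled CPM, which set a gene's reads against all reads counted in that animal. Reads counted over genes ranged from 8609845 in WT library 3 to 34718693 in WT library 4. Jam2, the gene J-RGCs are known for, averaged 107 ± 21.5 CPM in Tbr1 KO animals and 528 ± 85.6 CPM in WT animals (SD, n = 4 each). Tbr1 was still counted, at 119.5 ± 23.4 CPM in Tbr1 KO animals and 169.5 ± 16.5 CPM in WT animals (SD, n = 4 each), and a gene count takes in any exons that remain, so it does not check the labels. The summed level of 20 pan-ganglion cell markers was 21376 to 23383 CPM in Tbr1 KO animals and 20630.2 to 24157 CPM in WT animals. An unadjusted p under 0.05 by edgeR's quasi-likelihood test was reached by 7 of these 20, beside 7.09% of all tested genes. Of the 20, 0 passed the adjusted threshold. Tbr1 KO animal c stood apart in 20 photoreceptor markers, which summed to 1436 CPM there, 70.2 to 396 CPM in the other Tbr1 KO animals and 87.6 to 431 CPM in WT animals. Log2 fold changes (Tbr1 KO over WT) lay above 0 for 16 of the 16 photoreceptor markers tested, with a median of 1.82, and without Tbr1 KO animal c 12 of 16 did, with a median of 0.77. In 13 amacrine cell markers the genotypes did not overlap, with sums of 903 to 1122 CPM in Tbr1 KO animals and 529.6 to 777 CPM in WT animals. Summed levels of the other marker lists overlapped, at 754 to 997 CPM in Tbr1 KO animals and 869 to 1216 CPM in WT animals for 13 bipolar, 662 to 749 CPM in Tbr1 KO animals and 629 to 731 CPM in WT animals for 7 horizontal cell, 566 to 958 CPM in Tbr1 KO animals and 378 to 574 CPM in WT animals for 18 Müller glia and progenitor, and 21.3 to 73.7 CPM in Tbr1 KO animals and 29.3 to 109.6 CPM in WT animals for 16 astrocyte, vascular and microglia markers. In the Müller glia and progenitor list 2 of 17 tested genes, Clu and Dkk3, rose by the edgeR test below, 0 of the other marker genes did, and without Tbr1 KO animal c 0 of any list did. Values above 0 were found for 15 of those 17 genes (median 0.74, or 10 of 17 and 0.40 without Tbr1 KO animal c), 7 of 8 amacrine (median 0.48), 5 of 7 bipolar (median 0.44), 5 of 6 horizontal cell (median 0.47), 2 of 10 astrocyte, vascular and microglia (median -1.002) and 9 of 20 pan-ganglion cell markers (median -0.03). An unadjusted p under 0.05 by that test was reached by 4 of 8 amacrine, 4 of 17 Müller glia and progenitor and 2 of 7 bipolar markers. The same held for 2 of 6 horizontal cell, 1 of 16 photoreceptor and 0 of 10 astrocyte, vascular and microglia markers. Opn1mw of the photoreceptor and Lhx1 of the horizontal cell list were at 0 in every library. Isl1 is in both the bipolar and the pan-ganglion cell list, so the bipolar sum is not a measure of other cells alone. How much of each sum the ganglion cells make themselves was not tested. The part of other cells in the results below was not tested. In pools of sorted cells, fewer cells that express a gene and less RNA of it per cell cannot be told apart.

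None of the guidance genes passed the test over all genes, but Dcc, Ephb6 and Slit3 had levels that did not overlap between genotypes. Of the 36 genes, 32 passed the filter on low counts and 4 did not (Epha2, Efnb2, Ntn1 and Unc5b). Dcc and Slit3 were higher in every Tbr1 KO animal than in any WT animal, and Ephb6 was lower. That is 3 of 32 genes (9.38%), where 5.06% of all 13957 tested genes showed no overlap, 2.58% with Tbr1 KO animals higher and 2.48% with them lower. Adjusted p under 0.05 by edgeR's quasi-likelihood test with Benjamini-Hochberg adjustment was reached by 40 genes, or 0.287% of those tested (0.086% higher and 0.201% lower in Tbr1 KO animals), and by 0 of the 32. The 40 genes became 22 without Tbr1 KO animal a, 17 without b, 25 without d and 18 without WT animal b. An unadjusted p under 0.05 was reached by 3 of the 32 (9.38%) and by 7.09% of all tested genes. DESeq2, which called 256 genes (1.55%), called Dcc and Ephb6. The median log2 fold change of the 32 was -0.01, beside -0.00071 over all tested genes, with 14 values above and 18 below 0.

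**Figure D1:**
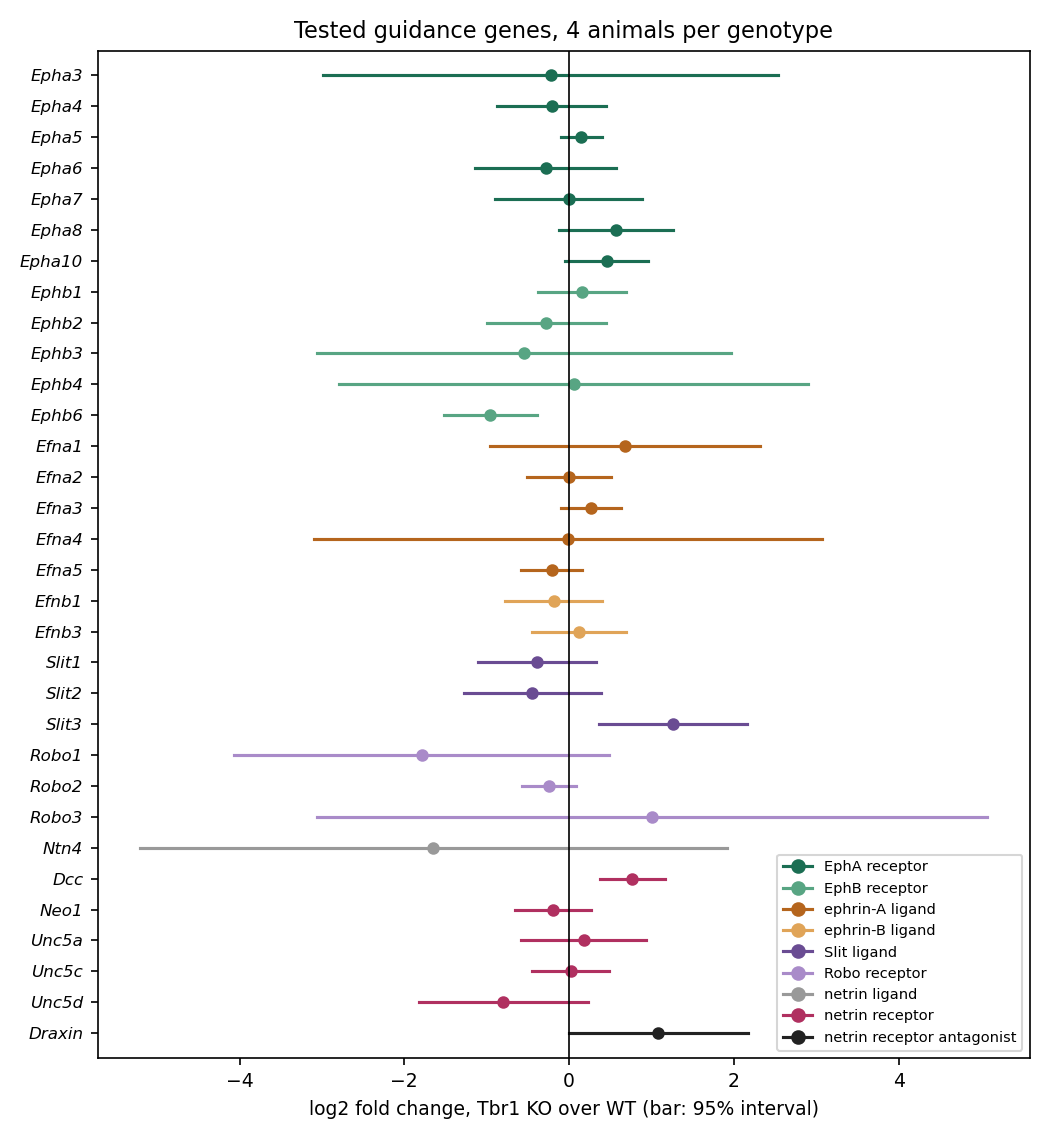
The log2 fold change of each of the 32 tested guidance genes, Tbr1 KO over WT, is drawn as a point with its 95% interval as a bar, coloured by role. The intervals of Dcc, Ephb6 and Slit3 lie to one side of 0, that of Ephb6 from -1.52 to -0.39, and the low genes Robo1, Robo3, Ntn4, Epha3, Ephb3, Ephb4 and Efna4 have the widest bars.

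Dcc, the receptor through which netrin attracts axons, was the guidance gene with the smallest p, and the only netrin receptor whose levels separated by genotype. It had 51.1, 51.8, 54.5 and 58.2 CPM in Tbr1 KO animals a to d, against 37.2, 28.4, 34.4 and 26.5 CPM in WT animals a to d. The 4 Tbr1 KO animals lay close together and the lowest of them stood above the highest WT animal. The log2 fold change was 0.77 ± 0.18 (SE), with a 95% interval of 0.37 to 1.16, which is 1.70-fold. Its adjusted p was 0.170 in edgeR's quasi-likelihood test with Benjamini-Hochberg adjustment. An exact permutation test (two-sided, on log2 CPM) gave p = 0.0286, the smallest it can give with 4 animals per genotype. Any gene without overlap gets this value, so it restates the separation and adds no support. These levels rest on 8873 reads over the Tbr1 KO and 4047 over the WT libraries. In single pools Dcc was at 51.1, 51.5, 47.4, 58.99, 54.7 and 58.5 CPM in Tbr1 KO libraries 1 to 6 and at 37.1, 27.9, 29.7, 34.3 and 26.5 CPM in WT libraries 1 to 5. No Tbr1 KO pool overlapped the WT pools. Pools of 1 animal differed by 1.01-fold in Tbr1 KO animal a, 1.25-fold in Tbr1 KO animal b and 1.07-fold in WT animal b. The pools make up the animal levels, so they are not further replicates. The share of all genes without overlap between pools is not given here. DESeq2 gave Dcc an adjusted p of 0.00325, and edgeR's quasi-likelihood test on the 11 libraries as separate samples gave 0.0300, with Benjamini-Hochberg adjustment in both. The second counts pools of 1 animal as replicates, and limma-voom with the animal as a random effect gave an adjusted p of 0.0519, which misses the threshold. Without each animal in turn the log2 fold change was 0.70 to 0.86.

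**Figure D2:**
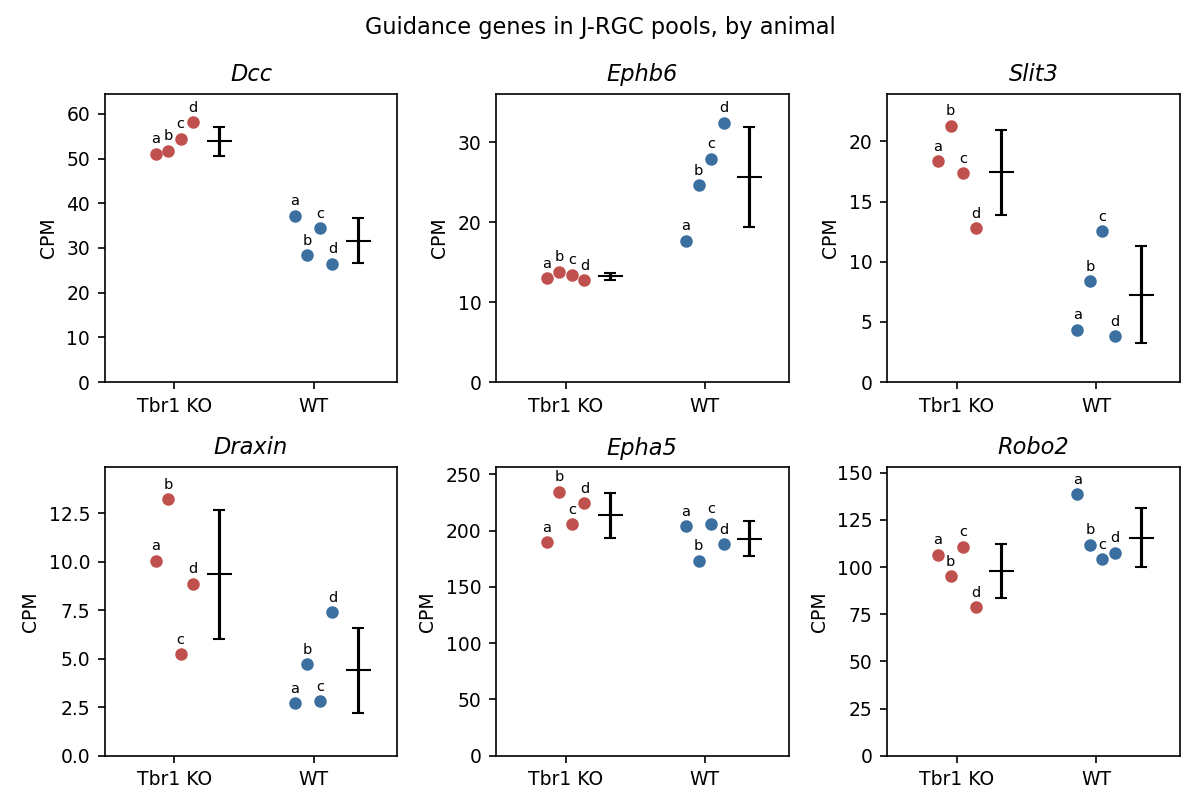
CPM of 6 guidance genes in each animal, with Tbr1 KO animals on the left and WT animals on the right of each panel, letters naming the animals and the bar giving the mean and SD of 4 animals. Dcc and Slit3 in Tbr1 KO animals sit above all WT animals and Ephb6 below them, while Draxin, Epha5 and Robo2 overlap.

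The other netrin receptors overlapped between genotypes. Neo1, the Dcc relative neogenin that binds netrins and repulsive guidance molecules, was at 49.4 ± 9.78 CPM in Tbr1 KO animals and 56.6 ± 13.3 CPM in WT animals (SD, n = 4 each), a log2 fold change of -0.19 ± 0.21 (SE) with a 95% interval of -0.65 to 0.26. WT animal a was high in it, at 76.5 CPM, against 49.5 to 50.4 CPM in the other WT animals. Among the repulsive netrin receptors, Unc5c averaged 35.1 ± 7.65 CPM in Tbr1 KO and 34.7 ± 4.63 CPM in WT animals, with an interval of -0.45 to 0.49 for the log2 fold change. The means of Unc5c were close. Unc5a averaged 11.4 ± 3.90 CPM in Tbr1 KO and 10.1 ± 1.78 CPM in WT animals, with an interval of -0.58 to 0.94. Unc5d had 2.47, 9.13, 4.12 and 10.4 CPM in Tbr1 KO animals a to d, against 13.1, 12.04, 11.9 and 8.38 CPM in WT animals a to d, a log2 fold change of -0.80 ± 0.47 (SE). Only Tbr1 KO animals b and d reached the range of the WT animals in Unc5d, and its adjusted p was 0.8289 by edgeR's quasi-likelihood test with Benjamini-Hochberg adjustment. Unc5a overlaps Hk3 and Unc5c overlaps Gm15688 on the opposite strand, and since strand is not marked in Smart-seq2, reads of such pairs cannot be told apart.

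Set against its relatives in the same cells, Dcc had a larger share of netrin receptor transcripts in every Tbr1 KO animal than in any WT animal. Per kilobase of exon, Dcc made up 27.1% ± 3.29 in Tbr1 KO and 16.8% ± 1.40 in WT animals (SD, n = 4) of the summed level of the 6 netrin receptors. The sum itself overlapped between genotypes, at 15.2 ± 1.58 CPM per kilobase in Tbr1 KO and 14.4 ± 2.40 in WT animals. The ratio of Dcc to Neo1 on that scale was 0.588 to 1.06 in Tbr1 KO animals and 0.322 to 0.455 in WT animals. Dcc over Unc5c was 1.89 to 3.03 in Tbr1 KO animals and 1.27 to 1.43 in WT animals. Neither ratio overlapped between genotypes. With the longest transcript as the length, Dcc over Unc5c was 1.22 to 1.95 in Tbr1 KO animals and 0.818 to 0.919 in WT animals, so that Unc5c was the higher of the pair in WT animals. These shares and ratios are descriptions built from the levels above, with no test of their own.

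Draxin, a secreted protein that binds Dcc and netrin-1 and repels axons, had 10.05, 13.2, 5.22 and 8.87 CPM in Tbr1 KO animals a to d, against 2.70, 4.71, 2.82 and 7.38 CPM in WT animals a to d. Only Tbr1 KO animal c lay below the highest WT animal, d. Draxin had a log2 fold change of 1.084 ± 0.50 (SE), with an interval of -0.01 to 2.17 and an adjusted p of 0.709 by edgeR's quasi-likelihood test with Benjamini-Hochberg adjustment. An exact two-sided permutation test gave p = 0.0571. Ntn1 and Ntn4 were scarce in these cells. Ntn1, which encodes netrin-1, had 21 reads over 3 Tbr1 KO libraries and 4 reads in 1 WT library. Ntn4, a laminin-related netrin of basement membranes, had 0 to 2.16 CPM in Tbr1 KO animals and 0 to 4.71 CPM in WT animals. Ntn3, a netrin outside the 36 genes, was above both, at 25.997 ± 6.98 CPM in Tbr1 KO and 37.2 ± 15.2 CPM in WT animals, with log2 fold change -0.52 ± 0.30 (SE, adjusted p = 0.821 by the same edgeR test).

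Among EphB receptors, Ephb6 was the one that separated by genotype. Ephb6 encodes a receptor whose kinase domain lacks catalytic activity, on GRCm38 chromosome 6, 41605482 to 41620509, plus strand. It had 13.03, 13.8, 13.4 and 12.7 CPM in Tbr1 KO animals a to d, against 17.7, 24.7, 27.97 and 32.5 CPM in WT animals a to d. The 4 Tbr1 KO animals were within 12.7 to 13.8 CPM, all below the lowest WT animal. Ephb6 had a log2 fold change of -0.96 ± 0.26 (SE), a 1.94-fold lower level, with an adjusted p of 0.285 by edgeR's quasi-likelihood test with Benjamini-Hochberg adjustment and an exact two-sided permutation p of 0.0286, again the smallest possible. DESeq2 gave a Benjamini-Hochberg adjusted p of 0.0201. In single pools it was at 16.3, 7.10, 14.6, 12.5, 13.5 and 12.8 CPM in Tbr1 KO libraries 1 to 6 and 17.6, 25.005, 23.3, 27.9 and 32.4 CPM in WT libraries 1 to 5. The pools of Tbr1 KO animal a differed 2.29-fold, the widest gap between pools of 1 animal among the 15 guidance genes at 20 CPM or more in WT animals, where the median gap was 1.21-fold. The Tbr1 KO animals thus lay closer together than their own pools. Without each animal in turn the log2 fold change stayed between -1.09 and -0.82.

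**Figure D3:**
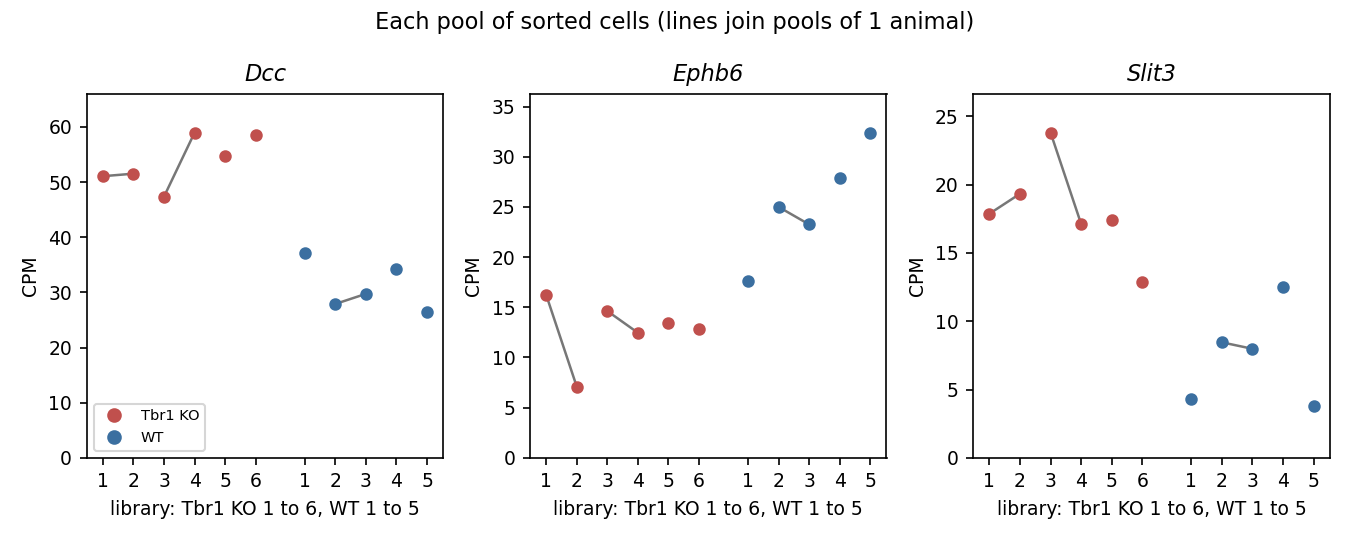
CPM of Dcc, Ephb6 and Slit3 in each of the 11 libraries, with Tbr1 KO libraries 1 to 6 on the left and WT libraries 1 to 5 on the right, and lines joining the pools of 1 animal. No Tbr1 KO pool overlaps the WT pools in any of the 3 genes, although Ephb6 in Tbr1 KO library 1 (16.3 CPM) and Slit3 in Tbr1 KO library 6 (12.9 CPM) come close. The genes were picked for animal levels that do not overlap, and the pools make up those levels.

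The kinase-active EphB receptors gave no such separation. Ephb1, the receptor known for guiding ganglion cells of the ventrotemporal retina to the same side of the brain, was at 39.1 ± 9.95 CPM in Tbr1 KO animals and 35.2 ± 9.02 CPM in WT animals (SD, n = 4 each), with a 95% interval of -0.38 to 0.69 for the log2 fold change. Ephb2, a ventrally graded receptor, was at 27.1 ± 10.3 CPM in Tbr1 KO and 32.9 ± 9.40 CPM in WT animals, with an interval of -1.001 to 0.44. Tbr1 KO animal d and WT animal d were the low ones in Ephb2, at 12.4 and 19.4 CPM. Ephb3 and Ephb4 were low, at 1.16 to 4.31 CPM in Tbr1 KO animals and 0 to 10.2 CPM in WT animals for Ephb3 and 0 to 3.76 CPM in Tbr1 KO animals and 0.807 to 2.54 CPM in WT animals for Ephb4. Ephb1 overlaps Gm26846 and Ephb4 overlaps Zan on the opposite strand. Per kilobase, Ephb6 made up 30.02% ± 4.97 in Tbr1 KO and 43.97% ± 3.56 in WT animals of EphB transcripts and Ephb1 made up 46.4% ± 4.41 in Tbr1 KO and 32.4% ± 3.31 in WT animals (SD, n = 4 each). Ephb6 led this group in WT animals and Ephb1 in Tbr1 KO animals, but in WT animals their levels per kilobase lay within the spread of the animals, at 6.81 ± 1.65 and 5.02 ± 1.29. With the longest transcript as the length, Ephb1 came first in WT animals too, at 7.53 against 6.83 for Ephb6. The Ephb6 to Ephb1 ratio per kilobase was 0.465 to 0.793 in Tbr1 KO animals and 1.19 to 1.603 in WT animals. With the longest transcript it was 0.311 to 0.530 in Tbr1 KO animals and 0.797 to 1.07 in WT animals. The Ephb6 to Ephb2 ratio per kilobase overlapped, at 1.23 to 3.43 in Tbr1 KO animals and 1.44 to 5.58 in WT animals. The EphB shares and ratios are built from the levels above, so they add no support and have no test of their own.

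Epha5 was the most abundant EphA receptor, and none of the 7 tested passed the threshold. Per kilobase it made up 40.8% ± 4.90 in Tbr1 KO and 42.0% ± 2.12 in WT animals of EphA transcripts. With the longest transcript as the length, its mean share was 54.8% in Tbr1 KO and 55.9% in WT animals. Epha5, one of the EphA receptors of topographic mapping, had 189.8, 235, 206 and 224 CPM in Tbr1 KO animals a to d, against 204, 173, 206 and 188 CPM in WT animals a to d. The genotypes overlapped, and the 95% interval of its log2 fold change, -0.10 to 0.40, was among the narrowest of the 32 genes. Epha8 had 30.1, 27.2, 36.6 and 23.8 CPM in Tbr1 KO animals a to d, against 34.2, 15.3, 17.4 and 12.5 CPM in WT animals a to d. WT animal a lay among the Tbr1 KO animals in Epha8 while the other WT animals lay below them all, and the log2 fold change was 0.57 ± 0.32 (SE, adjusted p = 0.805 by edgeR's quasi-likelihood test with Benjamini-Hochberg adjustment), or 0.97 without WT animal a. Epha10, which like Ephb6 lacks kinase activity, had 43.3 ± 11.2 CPM in Tbr1 KO and 31.6 ± 5.06 CPM in WT animals (SD, n = 4), a log2 fold change of 0.45 ± 0.23 (SE). It overlaps 1700125G02Rik on the opposite strand, as Epha6 does Gm9017. Epha10 and Ephb6, the kinase-inactive members, thus had values of opposite sign, and that of Epha10 had an interval of -0.05 to 0.96. Epha4, a receptor that binds both ephrin classes, was at 26.2 ± 9.77 CPM in Tbr1 KO and 30.3 ± 7.66 CPM in WT animals. Epha6 was at 5.46 to 12.8 CPM in Tbr1 KO animals and 8.68 to 19.1 CPM in WT animals, and Epha7 at 5.81 to 13.9 CPM in Tbr1 KO animals and 5.93 to 13.4 CPM in WT animals. The ranges of these 3 receptors overlapped widely. Epha3 and Epha2 were barely counted, at means of 1.29 and 0.568 CPM in Tbr1 KO animals and 1.5001 and 0.562 CPM in WT animals.

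Among the ephrin ligands, Efna5 and Efna3 had the highest CPM, and the CPM of no ligand separated by genotype. Efna5, an ephrin-A of topographic mapping that is also made by ganglion cells, had 265, 245, 177 and 174 CPM in Tbr1 KO animals a to d, against 269, 276, 185 and 267 CPM in WT animals a to d. WT animal c stood below the other WT animals and inside the Tbr1 KO range. The log2 fold change was -0.21 ± 0.17 (SE), with an interval of -0.59 to 0.16. Efna3 was at 81.4 ± 11.6 CPM in Tbr1 KO and 67.5 ± 9.89 CPM in WT animals, a log2 fold change of 0.27 ± 0.17, and Efna2 at 34.9 ± 6.56 CPM in Tbr1 KO and 35.02 ± 9.28 CPM in WT animals, a log2 fold change of -0.0034 ± 0.23 (SD and SE, n = 4). Within the ephrin-A group, the share of Efna5 per kilobase was 49.3% ± 4.65 in Tbr1 KO and 56.4% ± 3.37 in WT animals. These shares did not overlap, but the highest Tbr1 KO share, 51.99%, lay close to the lowest WT share, 52.87%. They are built from levels that overlapped and have no test of their own. Of the ephrin-B ligands, Efnb1 averaged 43.1 ± 10.99 CPM in Tbr1 KO and 49.2 ± 18.8 CPM in WT animals and Efnb3 37.8 ± 13.6 CPM in Tbr1 KO and 34.8 ± 6.42 CPM in WT animals. The intervals of their log2 fold changes were -0.78 to 0.40 and -0.44 to 0.69. Efnb2, the dorsally graded ephrin-B, was near absent from the pools, at 0 to 2.70 CPM in Tbr1 KO animals and 0 to 3.42 CPM in WT animals, and Efna4 was at 0 to 2.26 CPM in Tbr1 KO animals and 0.0403 to 2.51 CPM in WT animals. Efna3 and Efna4 overlap other genes on the opposite strand.

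Efna1 varied widely between animals of each genotype and between pools. It had 14.2, 8.09, 0.652 and 5.20 CPM in Tbr1 KO animals a to d, against 5.81, 6.35, 2.03 and 3.39 CPM in WT animals a to d, and its pools of Tbr1 KO animal a were at 17.5 and 8.13 CPM. Its log2 fold change was 0.68 ± 0.76 (SE). Among the 31 guidance genes with a promoter in the RefSeq table, Efna1 was the one that held the core of the T-box motif, the DNA sequence that T-box factors bind. The motif searched was GGTGTGA on either strand, which reads TCACACC on the other, in the 250 bases before each start. Of 36 promoters that matched 31 of the guidance genes, 1 (2.78%) held it, and of all 32851 RefSeq promoters 3.33% did. It is shown with its surroundings, read 5′ to 3′ on the minus strand with the motif in capitals, since it is the only such match (GRCm38.p6, chr3:89280952-89280985, 14 bases before the start to the motif's first base).
Efna1 promoter: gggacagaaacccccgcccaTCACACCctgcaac
In GENCODE M21, used here for exon lengths, Efna1 spans chr3:89271733-89281142. The window shown thus lies before the RefSeq start but inside the gene as annotated there. Dcc, Efnb3, Slit1, Ntn1 and Unc5d were not searched. The promoters of Ephb6 and Slit3 did not hold these letters in this window, which says nothing of binding elsewhere.

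Slit3 was the Slit that separated by genotype, by a narrow margin. It encodes a secreted repellent for axons that carry Robo receptors and lies on GRCm38 chromosome 11, 35121224 to 35708507, plus strand. It had 18.3, 21.3, 17.4 and 12.8 CPM in Tbr1 KO animals a to d, against 4.36, 8.37, 12.5 and 3.83 CPM in WT animals a to d. Every Tbr1 KO animal lay above every WT animal, but Tbr1 KO animal d and WT animal c were almost level. The log2 fold change was 1.26 ± 0.41 (SE), or 2.40-fold, with an interval of 0.37 to 2.16, an adjusted p of 0.464 by edgeR's quasi-likelihood test with Benjamini-Hochberg adjustment and an exact two-sided permutation p of 0.0286. In single pools Slit3 was at 17.9, 19.3, 23.8, 17.1, 17.4 and 12.9 CPM in Tbr1 KO libraries 1 to 6 and at 4.34, 8.46, 7.98, 12.5 and 3.82 CPM in WT libraries 1 to 5. Without each animal in turn the log2 fold change was 1.06 to 1.66. Slit1 and Slit2 had values of the opposite sign, neither past the threshold. Slit1 was at 14.4 ± 4.83 CPM in Tbr1 KO and 18.9 ± 6.47 CPM in WT animals, a log2 fold change of -0.39 ± 0.33, and Slit2 at 12.04 ± 2.43 CPM in Tbr1 KO and 16.4 ± 7.12 CPM in WT animals, a log2 fold change of -0.45 ± 0.38 (SD and SE, n = 4). Slit3 made up 50.03% ± 8.43 in Tbr1 KO and 23.01% ± 6.82 in WT animals of Slit transcripts per kilobase, and Slit1 41.7% ± 8.40 in Tbr1 KO and 64.01% ± 6.01 in WT animals. Slit3 over Slit1 was 0.794 to 1.95 in Tbr1 KO animals and 0.207 to 0.514 in WT animals, with no overlap. The Slit shares and this ratio are built from the levels above, so they add no support and have no test of their own.

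Robo2 was by far the main Robo receptor, at 93.6% ± 11.1 in Tbr1 KO and 93.7% ± 4.25 in WT animals of Robo transcripts per kilobase. By animal, its share was 99.4%, 98.5%, 77.0% and 99.3% in Tbr1 KO animals a to d. In WT animals a to d it was 99.6%, 89.6%, 93.1% and 92.5%. The close means thus include a low share in Tbr1 KO animal c, where Robo3 was high. Robo2 is the Robo through which Slits keep ganglion cell axons on course. It had 107, 95.1, 111 and 78.6 CPM in Tbr1 KO animals a to d, against 139, 112, 104 and 108 CPM in WT animals a to d. The genotypes overlapped, and the log2 fold change was -0.24 ± 0.15 (SE), with an interval of -0.57 to 0.09. Robo1 was low, with 0.624, 0.341, 2.55 and 0.533 CPM in Tbr1 KO animals a to d, against 0.484, 3.59999, 5.02 and 4.87 CPM in WT animals a to d. In Robo1, WT animals b, c and d lay above all Tbr1 KO animals, and WT animal a lay below Tbr1 KO animals a, c and d. Its log2 fold change was -1.79 ± 1.05 (SE) on 150 reads in Tbr1 KO and 479 in WT libraries. Robo3, a divergent Robo that mammals use at the midline and that binds Nell2, was at 12.3 CPM in Tbr1 KO animal c and at no more than 0.431 CPM in the other Tbr1 KO animals, against 0 to 3.76 CPM in WT animals. Without Tbr1 KO animal c its fitted log2 fold change was -3.40, against 1.01 ± 1.87 (SE) with it.

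Per kilobase of exon, which allows genes to be compared, ephrin-A ligands led. Efna5 was highest, at 53.3 ± 11.6 in Tbr1 KO and 61.8 ± 10.7 in WT animals CPM per kilobase (SD, n = 4), followed by Efna3 at 33.4 ± 4.78 in Tbr1 KO and 27.7 ± 4.06 in WT animals and Efna2 at 16.4 ± 3.08 in Tbr1 KO and 16.4 ± 4.36 in WT animals. Epha5 came next among receptors at 12.8 ± 1.18 in Tbr1 KO and 11.5 ± 0.919 in WT animals, close to the ligands Efnb1 at 12.5 ± 3.18 in Tbr1 KO and 14.3 ± 5.45 in WT animals and Efnb3 at 11.9 ± 4.28 in Tbr1 KO and 10.9 ± 2.02 in WT animals. Efnb1 and Efnb3 did not differ beyond their spread. Robo2, Neo1 and Ephb6 were at 6.81, 6.49 and 6.81 CPM per kilobase in WT animals, again within the spread of each other. Dcc was at 4.09 ± 0.244 in Tbr1 KO and 2.40 ± 0.382 in WT animals. In WT animals it stood level with Unc5a, at 2.42 ± 0.427, and below Neo1. With the longest transcript in place of all annotated exons, Epha5 and Robo2 were higher in WT animals, at 26.3 and 13.5. Each kept the first place in its group, but the order across groups moved. Epha5 then lay above Efna2 (16.4) and near Efna3 (28.6), and Robo2 above Efnb3 (10.9). Within groups, the rank of 10 genes changed.

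**Figure D4:**
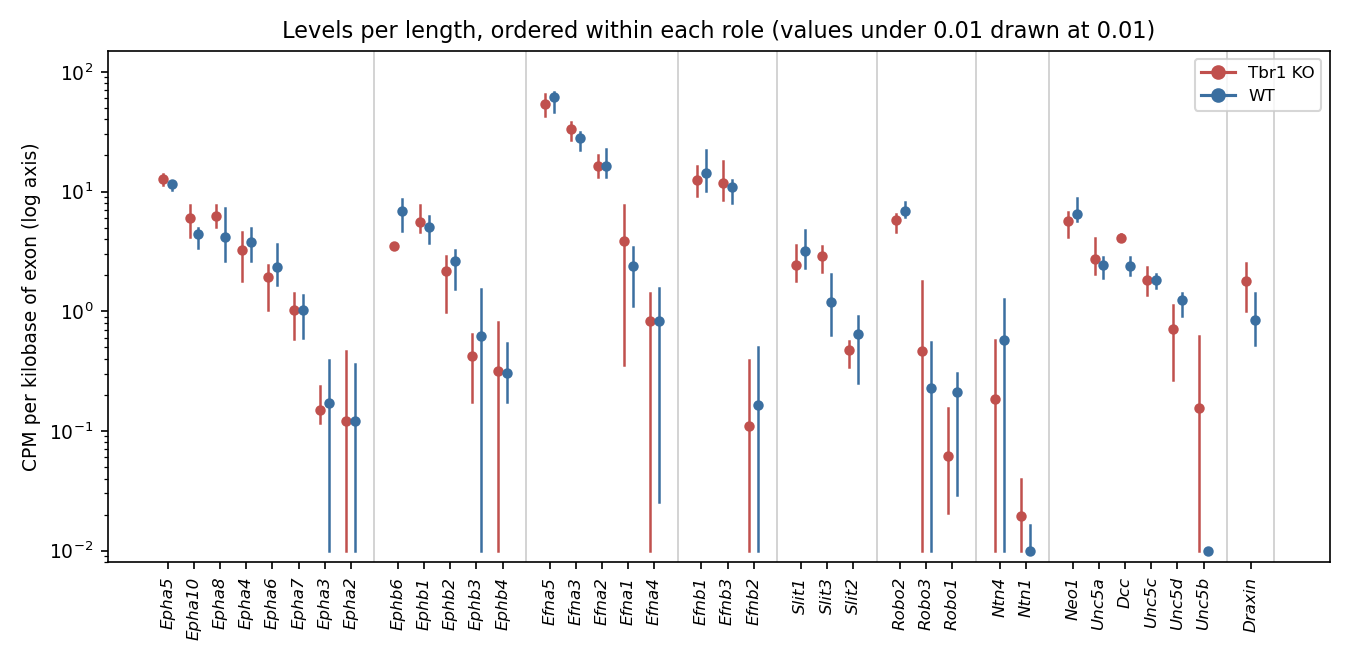
CPM per kilobase of exon on a log axis for the 36 guidance genes, grouped by role and ordered by their WT mean, with points for the mean of 4 animals and lines for their range, Tbr1 KO on the left of each pair. Efna5 is highest at 53.3 in Tbr1 KO and 61.8 in WT animals, and the 11 genes with long lines reaching the bottom of the plot or low means were missing from 1 or more libraries.

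Of the guidance genes, 25 of 36 were counted in all 11 libraries, and the other 11 averaged under 5 CPM in both genotypes. These 11 are Epha2, Epha3, Ephb3, Ephb4, Efna4, Efnb2, Robo1, Robo3, Ntn1, Ntn4 and Unc5b. Unc5b had 131 reads, all in the 1 library of Tbr1 KO animal c, and 0 in every other library, where 3 reads would be at most 0.121 CPM in any animal. Tbr1 KO animal c also had the highest Robo3, Robo1, Epha3, Ephb4, Ntn4 and Efnb2 among Tbr1 KO animals, and the photoreceptor marker sum given above. The part of other cells in that pool was not tested. Such floors cover counting error only, since the reads carry no molecular identifiers. At the other end, for 14 of the 32 tested genes the 95% interval of the log2 fold change lay within 1 of 0.

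The lists of signalling partners gave 0 genes past the threshold by edgeR's quasi-likelihood test with Benjamini-Hochberg adjustment. Of 35 tested Eph and ephrin partners, 3 did not overlap between genotypes (8.57%, beside 5.06% of all tested genes). They were Vav3 and Ngef, guanine nucleotide exchange factors that act below Eph receptors, and Cdk5, a neuronal kinase named here after its values were seen. Vav3 had 9.38, 8.76, 13.3 and 6.39 CPM in Tbr1 KO animals a to d and 46.3, 23.4, 22.5 and 16.6 CPM in WT animals a to d. All Tbr1 KO animals lay below all WT animals. Its log2 fold change was -1.52 ± 0.36 (SE, adjusted p = 0.175 by the same edgeR test). Ngef, which encodes ephexin-1, had 4.50, 4.11, 2.70 and 0 CPM in Tbr1 KO animals a to d and 16.4, 9.53, 18.8 and 31.5 CPM in WT animals a to d, also without overlap, at -2.75 ± 0.90 and an edgeR adjusted p of 0.465. Cdk5 was at 187 ± 13.8 CPM in Tbr1 KO and 216 ± 5.07 CPM in WT animals, with log2 fold change -0.20 ± 0.10, and Grip1, a scaffold that binds ephrin-B and EphB receptors, at 201 ± 25.6 CPM in Tbr1 KO and 243 ± 17.2 CPM in WT animals, with log2 fold change -0.28 ± 0.12 (SD and SE, n = 4). The median log2 fold change of this list was 0.01, beside -0.00071 over all tested genes.

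Of 30 netrin receptor partners, 1 did not overlap (3.33%, beside 5.06% of all tested genes). It was Trim67, a TRIM protein that binds Dcc, at 731 ± 38.1 CPM in Tbr1 KO and 848 ± 58.1 CPM in WT animals, with log2 fold change -0.22 ± 0.09 (SD and SE, n = 4). Rgmb, a ligand of Neo1, was at 30.6 ± 7.23 CPM in Tbr1 KO and 47.9 ± 14.98 CPM in WT animals, with log2 fold change -0.65 ± 0.26, and the adaptor Appl1 at 77.6 ± 4.39 CPM in Tbr1 KO and 94.4 ± 16.6 CPM in WT animals, with log2 fold change -0.28 ± 0.15. The ranges of Rgmb and Appl1 overlapped between genotypes, and the list had a median of -0.07. Of 19 tested Slit and Robo partners, 1 did not overlap (5.26%, beside 5.06% of all tested genes), a share near that over all genes. It was Flrt3, a co-receptor of Robo1, at 23.2 ± 4.69 CPM in Tbr1 KO and 36.1 ± 6.41 CPM in WT animals, with log2 fold change -0.63 ± 0.23. Srgap2, a GTPase-activating protein that binds Robo, was at 29.2 ± 5.28 CPM in Tbr1 KO and 41.4 ± 10.3 CPM in WT animals, with log2 fold change -0.51 ± 0.23, and the heparan sulphate proteoglycan gene Sdc1 at 12.8 ± 4.38 CPM in Tbr1 KO and 7.38 ± 1.599 CPM in WT animals, with log2 fold change 0.80 ± 0.38. The edgeR quasi-likelihood adjusted p (Benjamini-Hochberg) of these 6 genes was 0.543 to 0.785. The list median was -0.06.

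Among 16 tested genes of ganglion cell axon growth and midline crossing, 3 did not overlap (18.8%, beside 5.06% of all tested genes). They were Nrp1, a receptor for semaphorins and VEGF, Sema6d, a transmembrane semaphorin of the optic chiasm, and Vegfa, a Nrp1 ligand named after its values were seen. Nrp1 was at 42.5 ± 9.34 CPM in Tbr1 KO and 83.8 ± 21.7 CPM in WT animals, with log2 fold change -0.98 ± 0.22 and Sema6d at 23.9 ± 3.52 CPM in Tbr1 KO and 11.8 ± 3.73 CPM in WT animals, with log2 fold change 1.02 ± 0.30 (SD and SE, n = 4). Vegfa was at 8.08 ± 2.24 CPM in Tbr1 KO and 4.26 ± 0.964 CPM in WT animals, with log2 fold change 0.92 ± 0.46. The adjusted p of Nrp1, Sema6d and Vegfa was 0.132, 0.334 and 0.760 by the same edgeR test. Nrcam, a cell adhesion molecule of the immunoglobulin family, was at 201 ± 27.2 CPM in Tbr1 KO and 157 ± 33.7 CPM in WT animals, with log2 fold change 0.35 ± 0.16. Position within the retina also sets levels of Eph receptors and ephrins, so genes of retinal position were read beside them, of which 8 were tested, 0 passed and 1 did not overlap (12.5%, beside 5.06% of all tested genes). Tbx2, a T-box gene of the dorsal retina, had 9.89, 14.6, 20.04 and 19.6 CPM in Tbr1 KO animals a to d and 35.4, 34.7, 20.8 and 25.3 CPM in WT animals a to d. It was the one without overlap, and animal c of each genotype set the narrow gap. Vax2, a homeobox gene of the ventral retina, was at 137 ± 25.3 CPM in Tbr1 KO and 168 ± 15.4 CPM in WT animals, with log2 fold change -0.29 ± 0.15, and Nr2f1 at 8.06 ± 3.56 CPM in Tbr1 KO and 4.79 ± 1.54 CPM in WT animals, with log2 fold change 0.75 ± 0.51 (SD and SE, n = 4). The edgeR quasi-likelihood adjusted p (Benjamini-Hochberg) of Tbx2, Vax2 and Nr2f1 was 0.493, 0.764 and 0.872. The labels do not say from which part of the retina the pools came, and the part of position in the levels of Ephb6, Dcc and Slit3 was not tested.

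Of the family members outside the 36 genes, 3 were tested and 0 passed the threshold. Ntng1, an axonal netrin-G that binds Lrrc4c and not Dcc, was at 135 ± 13.4 CPM in Tbr1 KO and 139.8 ± 29.3 CPM in WT animals, with log2 fold change -0.05 ± 0.16 (SD and SE, n = 4). Ntng2 had 1.002, 9.06, 35.7 and 11.002 CPM in Tbr1 KO animals a to d and 4.03, 3.06, 0.784 and 6.31 CPM in WT animals a to d, with Tbr1 KO animal c again the highest. The genotypes overlapped in Ntng2. Its log2 fold change was 2.00 ± 0.85 (SE, adjusted p = 0.657 by edgeR's quasi-likelihood test with Benjamini-Hochberg adjustment). Ntn5 and Robo4 had 0 counts in every library, and Epha1 and Unc5cl were counted in Tbr1 KO animals only, at no more than 0.345 CPM.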

How the data were processed

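RNA sequencing of 11 pools of 100 sorted J-RGCs was used. Per the labels' protocols, libraries used Smart-seq2 followed by Nextera XT, with single-end reads. The authors deposited raw counts of reads for each gene symbol. The submitters' processing notes name HTSeq 0.6.1, TopHat2 2.0.10, Trimmomatic 0.32 and the build mm10 (GRCm38), without their roles. For annotation and strand setting, nothing is given in the sources used here. Lines naming no gene were left out of library sizes and tests, and held 20.0% to 24.8% of reads in no feature, 1.31% to 1.47% ambiguous and 13.2% to 14.6% not uniquely aligned.

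Counts were summed per animal, filtered with filterByExpr (13957 genes), scaled by TMM and compared by edgeR's robust quasi-likelihood test (edgeR 4.0.16, R 4.3.3), adjusted by Benjamini-Hochberg with 0.05 as the threshold. The common biological coefficient of variation was 0.566. The SE is the log2 fold change divided by the square root of F, and 95% intervals use the fit's degrees of freedom. CPM of single libraries used TMM over the 11 libraries. Exact permutation tests used log2(CPM + 0.5). Levels per kilobase divide CPM by the union of exons in GENCODE M21, which held all 36 genes. Alternatives were other scalings, filters and units of replication, a replicate block, DESeq2 1.42.0, limma 3.58.1 (voom), and leaving out each animal; libraries 1 to 5 without the block were added after seeing the data. Every guidance gene is named, in full where genotypes did not overlap or where it led its group; from each partner, crossing and position list, genes past the threshold and 3 more with the smallest p are named. Summed levels are given for marker lists, and values of some single markers are not reported here. The genes and lists were chosen with earlier results of these data known. Plots used matplotlib 3.10.9.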

Additional observations from a re-analysis of the deposited data

Results flagged for a closer look

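Values of 1 animal that stood far from the other 3 of its genotype were found in 9 of 72 groups. The rule would flag about 1 in 20 groups of normally distributed values. That rate need not hold for levels at or near 0 CPM, where many of the flagged groups lie, so the 2 rates cannot be compared. Tbr1 KO animal c was the highest in 5 of the 9 flagged groups. Among Tbr1 KO animals, Robo3 was at 12.3 CPM in animal c and at 0 to 0.431 CPM in the others. Unc5b was at 3.88 CPM in that animal and at 0 in the others. Efnb2 was at 2.7 CPM in it, against 0 to 0.2 CPM. Robo1 was at 2.55 CPM, against 0.341 to 0.624 CPM. Epha3 was at 2.07 CPM, against 1 to 1.05 CPM. The photoreceptor markers of this animal summed to 1436 CPM, and their part was not tested. Epha2 was at 2.15 CPM in Tbr1 KO animal b, against 0 to 0.119 CPM in the other Tbr1 KO animals. Among WT animals, Neo1 was at 76.5 CPM in animal a, against 49.5 to 50.4 CPM in the others. Efna5 was at 185 CPM in WT animal c, against 267 to 276 CPM. Ntn1 was at 0.104 CPM in WT animal b and at 0 in the others.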

How the results depend on the processing

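The count of 0 guidance genes past the threshold became 2 with DESeq2 (Dcc and Ephb6) and 1 with the 11 libraries as separate samples (Dcc), and was 0 in the other settings and without each animal in turn. The 40 genes changed over all genes became 256 with DESeq2, 84 with the 11 libraries as separate samples, 76 with limma-voom and the animal as a random effect and 90 with libraries 1 to 5 as separate samples, and 17 to 44 without each animal. Of the 32 tested guidance genes, 18 kept the sign of their log2 fold change in every alternative that gave a value, Dcc, Ephb6, Slit3, Draxin, Epha5, Epha8, Epha10 and Robo2 among them. Signs turned as follows, with the cause not tested: RLE scaling, 0.0006 for Epha7; upper quartile scaling, 0.013 for Epha7 and 0.0129 for Efna2; no filter on low counts, 0.0017 for Epha7 and 0.0048 for Efna2; the stricter filter, 0.0071 for Epha7 and 0.0042 for Efna2. They also turned so: DESeq2, 0.0007 for Epha7; limma-voom, 1.13 for Epha3, 0.82 for Ephb3, -1.24 for Ephb4, 0.0461 for Efna2 and -2.08 for Robo3; the 11 libraries as separate samples, 0.0437 for Efna2 and 0.24 for Efna4. The last of them were limma-voom with the animal as a random effect, 0.23 for Epha3, 0.74 for Ephb3, -2.51 for Ephb4, 0.0362 for Efna2, -1.49 for Robo3 and -0.0035 for Unc5c; the deeper library of each animal, -0.63 for Ephb4, 0.0888 for Efna2, 0.10 for Efna4 and -0.0036 for Efnb3; libraries 1 to 5 without the block, 0.0525 for Epha3, 0.021 for Epha4, 0.016 for Efna2, 0.50 for Efna4 and -0.078 for Unc5c. Without each animal in turn, log2 fold changes spanned 0 at -0.62 to 0.56 for Epha3, -0.42 to 0.0102 for Epha6, -0.19 to 0.19 for Epha7, -0.0286 to 0.27 for Ephb1, -0.95 to 0.45 for Ephb3, -1.01 to 0.51 for Ephb4, -0.12 to 0.19 for Efna2, -0.41 to 0.50 for Efna4, -0.35 to 0.11 for Efnb1, -0.15 to 0.26 for Efnb3, -3.40 to 1.89 for Robo3, -0.0712 to 0.29 for Unc5a and -0.12 to 0.14 for Unc5c. Replicate numbers do not pair the samples: same-numbered libraries had correlations of deviations from their group means of -0.0283 to 0.128, and 1 of 5 correlated best with its own number. With the replicate number as a block the calls were 42 over all genes, against 90 without it, with 0 guidance genes, and the sign turned to 0.0223 for Epha4, 0.33 for Ephb3, -0.97 for Ephb4, 0.0127 for Efna2, 0.67 for Efna4 and -0.10 for Unc5c. The length of the longest transcript moved the WT level per kilobase of 10 genes by more than 1 SD and kept that of 26. Low counts limit the 11 genes under 5 CPM. P-values rest on 4 animals per genotype.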
